A study of Mus musculus with 8 samples.

Results

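The variable (V) end of the mouse immunoglobulin heavy-chain locus was read through 145 probes, taken as every non-control probe whose design coordinates lie in chr12:114784624-117298953 of build mm9, out of 39429 distinct non-control probes on the array. Of these, 141 lie on the minus strand, the sense strand of the locus, and 4 on the plus strand. The file annotation names a V segment of 1 of 15 families for 58 probes, describes 71 more as immunoglobulin or similar to it, gives 14 another or no description, and assigns 2 to Zfp386, a zinc finger gene at the far end. Of the 145 probes, 7 matched a gene of the RefSeq table, so names are given as in the array files.

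RNA came from cultured pro-B cells of BALB/c Rag1 null mice on 8 one-colour arrays, 2 separate sorts for each of 4 groups. Fetal liver pro-B cells from day 16 of gestation, pooled over 8 embryos on average, received a let-7b retrovirus or the empty MSCV vector. Adult bone marrow pro-B cells, from 2 mice a sort, received a Lin28b retrovirus or the empty pMIG vector. All cells grew on OP9 stromal cells with IL-7, and GFP+ cells were sorted 4 days after transduction. Both treatments are forced expression from a retrovirus in culture, and only transduced cells were kept. The 2 tissues also differ in empty vector, slide and scan: the 4 bone marrow arrays share slide 1, while fetal liver replicate 1 of both groups is on slide 2 and replicate 2 of both on slide 3.

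A V segment is joined to a D and a J segment by the Rag1 and Rag2 recombinase to make the variable domain of an antibody. Before that, pro-B cells transcribe unrearranged V segments, the so-called germline or sterile transcripts, and without Rag1 the locus stays in this form. In the mouse, segments near the constant region belong largely to families 2 (Q52) and 5, which fetal repertoires use preferentially. The large family 1 (J558) fills the distal end and is known for its dependence on IL-7 receptor signals, Pax5, Ezh2, Yy1 and contraction of the locus. Lin28b is a fetal RNA-binding protein that blocks maturation of let-7 microRNAs. The series title names Arid3a, a DNA-binding factor first described for binding near heavy-chain V promoters and the heavy-chain enhancer.

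The following probes of 60 bases show what was hybridised. The first set reads through the end of a V coding part into the recombination signal that follows it in unrearranged DNA, and capitals mark the heptamer CACAGTG. Both are on the minus strand, LOC640701 at chr12:117247846-117247905 and LOC639988 at chr12:115821756-115821812.
LOC640701: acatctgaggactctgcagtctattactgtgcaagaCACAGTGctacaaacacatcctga
LOC639988: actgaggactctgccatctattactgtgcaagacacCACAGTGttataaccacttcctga
The heptamer was searched on the probe strand and was present in 8 of the 145 probes (5.52%), against 309 of all 39429 probes (0.784%). The letters TACTGTG, at the end of the V coding part, followed within 12 bases by the heptamer were present in 4 of the 145 probes (2.76%), against 6 of all probes (0.0152%). A signal on such a probe can come from an unrearranged transcript. LOC640701 was well above background on all 8 arrays and LOC639988 on 6, while the other 2, LOC638088 and LOC641025, were so on none. These 4 were picked out by sequence, and LOC639988, LOC638088 and LOC641025 were named after their values had been seen.

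The second set shows how far probes resolve single segments. Capitals mark the longest run that each shares with another of the 145 probes. All are on the minus strand: IGHV1-9 at chr12:115821969-115822027, IGHV1S6 at chr12:116383750-116383809, LOC677484 at chr12:115776734-115776793, LOC640614 at chr12:117218933-117218990, IGHV2-2 at chr12:114826478-114826537 and IGHV10-3 at chr12:115761848-115761907.
IGHV1-9: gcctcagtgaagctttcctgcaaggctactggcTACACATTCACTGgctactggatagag
IGHV1S6: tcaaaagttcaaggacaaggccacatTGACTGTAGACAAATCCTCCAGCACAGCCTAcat
LOC677484: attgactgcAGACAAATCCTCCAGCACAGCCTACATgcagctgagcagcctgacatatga
LOC640614: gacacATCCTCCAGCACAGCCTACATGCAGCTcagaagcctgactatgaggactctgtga
IGHV2-2: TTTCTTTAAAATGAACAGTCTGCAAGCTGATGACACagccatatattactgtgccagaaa
IGHV10-3: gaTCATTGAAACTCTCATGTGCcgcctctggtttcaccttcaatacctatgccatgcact
The shared run is 13 bases in IGHV1-9, 31 in IGHV1S6, 27 in LOC677484 and in LOC640614, 36 in IGHV2-2 and 20 in IGHV10-3. In all, 58 of the 145 probes share a run of at least 20 bases with another. Joined by such runs, the 145 probes form 102 groups, the largest of 15 probes, 12 of them in the distal part. Probes of one such group may bind one another's transcripts and are not independent measurements. The design follows the C57BL/6J reference, whereas BALB/c mice carry another heavy-chain haplotype, so a dim probe may also mean a mismatched segment.

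Levels below are log2 signals minus the array's own 75th percentile, so 0 is a bright signal and negative values are dimmer. Across all probes, arrays correlated at 0.990 to 0.994 within bone marrow, 0.969 to 0.989 within fetal liver and 0.908 to 0.941 between tissues. The fetal liver arrays were dimmer, with a 75th percentile of 271 to 488 signal units against 1925 to 2234 in bone marrow. The lowest level well above background was accordingly -5.56 to -4.49 on fetal liver arrays and -7.13 to -6.55 on bone marrow arrays. Of 2 Lin28b probes, A_52_P532355 read 0.35 and 0.07 in Lin28b cells and -9.16 and -8.85 in bone marrow empty-vector cells, and A_55_P1970905 read -5.86 and -5.75 against -6.58 and -6.32. Mature let-7b was not analysed here. Both Rag1 probes were well above background on all 8 arrays, and whether they lie in the deleted part of the gene was not examined here.

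Detection of the V probes differed by tissue far more than by retrovirus. Well above background were 65 and 51 of the 145 probes on the let-7b arrays, 60 and 44 on the fetal liver empty-vector arrays, 105 and 107 on the Lin28b arrays and 108 and 106 on the bone marrow empty-vector arrays. Over all usable probes the shares were 68.5% and 56.7%, 67.7% and 56.0%, 67.3% and 67.8%, and 66.6% and 64.2% in the same order of arrays. Fetal liver thus lay below the array-wide share on every array, and bone marrow above it. Of the 145 probes, 40 were well above background on all 8 arrays, 33 on all 4 bone marrow and no fetal liver array, 29 on all 4 bone marrow and some fetal liver arrays, and 28 on none. The opposite pattern, some fetal liver but no bone marrow array, held for 3.

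Fetal liver detection differed along the locus. The interval of 2.51 Mb was divided into 5 windows of 503 kb, numbered from the constant-region end, which hold 35, 41, 26, 22 and 21 probes. In window 1, probes well above background on both arrays of a group numbered 2 in let-7b, 4 in fetal liver empty-vector, 24 in Lin28b and 24 in bone marrow empty-vector cells, of 35. In window 2 they numbered 5, 5, 20 and 19 of 41, and in window 3 they numbered 9, 5, 22 and 21 of 26, with the groups in the same order. Windows 4 and 5 held 17 and 15 such probes in let-7b cells, 13 and 15 in fetal liver empty-vector cells, 20 and 18 in Lin28b cells, and 20 and 19 in bone marrow empty-vector cells, of 22 and 21. In fetal liver empty-vector cells, most probes of windows 4 and 5 were thus detected on both arrays, and most probes of windows 1 to 3 were not.

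The median level of all probes of a window followed the same course. In fetal liver empty-vector cells it was -6.57, -6.64, -5.68, -4.09 and -2.99 from window 1 to window 5. The medians of the first windows lie under the background limit of those arrays and have no order among themselves. In bone marrow empty-vector cells the 5 medians were -4.88, -6.75, -3.92, -1.76 and -0.30. Several of the brightest immunoglobulin probes, LOC640614, LOC435333, ENSMUST00000109705 and the printed LOC640701 probe, lie in window 5 and carry no family name. Others lie elsewhere. In bone marrow empty-vector cells the mean was 3.20 for LOC677484 in window 2 and 2.82 for IGHV1S6 in window 4, against 3.52 for LOC640614.

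Because bone marrow arrays resolved lower levels, the tissues were also set side by side above a common limit. There were 83 V probes with a bone marrow empty-vector mean above -4.49, the highest of the array limits. Of these, 38 (45.8%) were well above background on both fetal liver empty-vector arrays and 29 (34.9%) on neither. Over all 19978 probes with such a bone marrow level, 94.6% were so on both and 1.29% on neither. Among the 31 such probes of windows 1 and 2, 7 were detected on both fetal liver empty-vector arrays and 19 (61.3%) on neither. Among the 52 of windows 3 to 5, 31 (59.6%) were detected on both and 10 (19.2%) on neither. The common limit does not make the windows equally bright. Over tested probes the median bone marrow empty-vector level was -2.77, -2.91, -3.56, -1.61 and -0.19 from window 1 to window 5. Position and brightness can thus not be told apart in these shares. In let-7b cells 45 of the 83 (54.2%) were detected on both arrays, against 96.6% of all such probes.

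The V families differed in detection, not in a plain order along the chromosome. Family 2, whose 5 probes lie between 41.9 and 333 kb, was detected on both arrays by all 5 probes in Lin28b and in bone marrow empty-vector cells, and by none in let-7b or fetal liver empty-vector cells. Of the 4 probes of family 5, between 32.3 and 313 kb, 1 was detected on both arrays in let-7b, 2 in fetal liver empty-vector, 3 in Lin28b and 3 in bone marrow empty-vector cells. Family 1 has 22 probes from 1037 to 2434 kb, of which 10 were detected on both arrays in let-7b, 6 in fetal liver empty-vector, 20 in Lin28b and 20 in bone marrow empty-vector cells. Family 8, with 5 probes from 916 to 2219 kb, was detected by 4, 4, 5 and 5 probes in that order of groups. Of its 5 probes, 3 are named IGHV8-8 and do not count as separate segments. Both probes of family 10 were well above background on all 8 arrays, and neither probe of family 13 passed the filter for testing.

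The smaller families hold 1 to 4 probes each, and few of them had fetal liver signal. No probe of families 3, 4, 9, 11, 14 and 15 was well above background on any fetal liver array, while 2 of the 4 probes of family 3, both of family 9 and the single probes of families 4, 11, 14 and 15 were so on all 4 bone marrow arrays. The family 14 probe IGHV14S2 read -6.33 and -6.58 in let-7b cells, -5.55 and -5.72 in fetal liver empty-vector cells, -2.52 and -2.22 in Lin28b cells and -2.45 and -2.69 in bone marrow empty-vector cells. Its groups overlapped within bone marrow and were far apart between the tissues. In families 6, 7 and 12 no probe was well above background on more than 1 array of a fetal liver group.

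Fetal liver empty-vector cells were first compared with bone marrow empty-vector cells, the comparison between the tissues from which the 2 retroviral experiments start. Tissue, vector plasmid, slide and scan cannot be told apart here. Its arrays also serve as the controls of the let-7b and Lin28b comparisons. Nor can fewer cells of a type and less RNA per cell be told apart in these bulk samples. By limma with Benjamini-Hochberg adjustment over 28409 tested probes, 80 of 106 tested V probes were lower in fetal liver (19.8% of all tested probes were called lower) and 4 were higher (39.1% of all were called higher). Both fetal liver arrays lay below both bone marrow arrays for 91 of the 106 V probes, against 28.9% of all tested probes, and above them for 7, against 53.7%. Many V probes passed the filter only through their bone marrow signal. Of the 40 V probes well above background on all 8 arrays, 33 lay below and 5 above, against 31.9% and 53.5% of the 20714 such probes on the array. Their median log2 difference was -2.74, against 0.34 for all such probes.

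Distal V probes fell by large amounts while staying measurable in both tissues. IGHV1S6, a family 1 segment 1599 kb from the constant-region end, read -1.92 and -1.81 in fetal liver empty-vector cells and 2.73 and 2.92 in bone marrow empty-vector cells. Its log2 difference was -4.69 (SE 0.14, limma adjusted p = 0.000285). LOC640701, the heptamer-bearing probe, read -2.09 and -2.18 in fetal liver and 2.61 and 2.57 in bone marrow, a log2 difference of -4.73 (SE 0.17, limma adjusted p = 0.000287). In both, the arrays of a tissue lay close together and the tissues were far apart. LOC640614, the brightest immunoglobulin probe of the interval, read -0.91 and -1.08 in fetal liver and 3.60 and 3.44 in bone marrow. LOC435333, on its brighter probe, read -2.48 and -2.52 against 2.51 and 2.40, and IGHV1-56 read -3.09 and -3.29 against 1.12 and 1.06. None of these 3 had overlapping groups, with log2 differences of -4.52, -4.96 and -4.28.

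For proximal probes with no detected signal in fetal liver, only a bound can be given. Each fetal liver array was given its own signal or its lowest level well above background, whichever was higher. An undetected probe can lie above that lowest level, so the bound is not a strict minimum. IGHV2-2, on the probe printed above, read -7.50 and -6.51 in fetal liver empty-vector cells and -2.22 and -2.46 in bone marrow empty-vector cells, at least 6.44-fold lower in fetal liver. IGHV2-9 read -6.02 and -6.80 against -1.84 and -1.78, at least 9.28-fold lower. LOC674110, 51 kb from the low end of the interval, read -7.55 and -6.79 against -1.03 and -0.90, at least 16.7-fold lower. The largest bound of this kind near the low end was LOC630302 at 19.1-fold. At the distal end IGHV1-11, on its probe 2434 kb from the constant-region end, had a bound of at least 21.5-fold. Over the tested probes the median difference was -3.02, -3.21, -1.98, -2.59 and -3.77 from window 1 to window 5. Few tested probes of windows 1 and 2 were well above background on all 8 arrays, 2 of 24 and 5 of 21, so the first medians are limited by the fetal liver background and no order along the locus can be read from them.

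The size of this tissue difference, and for the window medians its sign, depends on how background is treated. With normexp background correction, which adds an offset of 50 to signals, the median over immunoglobulin probes of windows 1 and 2 was 1.25 in place of -1.07, and that of windows 3 to 5 was 0.04 in place of -2.44. The count of V probes called lower was 28 under normexp, in place of 80. The median of all tested probes was 0.97 under normexp and 0.47 without it. For the 22 probes of the interval with a bone marrow empty-vector level above 0, the median was -3.59 under normexp and -4.68 without it. That choice uses 1 side of this comparison, which favours a lower fetal liver level. Some of the 22 are not described as immunoglobulin.

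The exceptions among the V probes were few. IGHV10-3 read -2.24 and -1.87 in fetal liver empty-vector cells and -2.77 and -3.05 in bone marrow empty-vector cells, higher by 0.85 on the log2 scale (SE 0.25, limma adjusted p = 0.0302). This call was lost with the replicate number as a block (limma adjusted p = 0.0677). It was also lost without bone marrow empty-vector replicate 1 or 2 (limma adjusted p = 0.0704 and 0.143) or fetal liver empty-vector replicate 2 (0.112). Its neighbour IGHV10-1 read -4.46 and -3.78 in fetal liver and -1.53 and -1.46 in bone marrow, a difference of -2.62, so the 2 probes of family 10 ran in opposite directions. LOC641177 was higher by 1.58 (limma adjusted p = 0.00243), reading -4.50 and -3.96 against -5.92 and -5.70. Family 8 had a median difference of -1.33, against -3.54 over the 20 tested probes of family 1. Its probe IGHV8-9 read -4.83 and -3.54 in fetal liver and -3.88 and -3.90 in bone marrow, and the groups overlapped.

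The interval also holds probes that are not described as V segments, some of them higher and some lower in fetal liver. LOC635326, on the plus strand at chr12:117070139-117070198, was the brightest probe of the interval, at 6.93 and 7.37 in fetal liver empty-vector cells and 6.11 and 6.05 in bone marrow empty-vector cells (log2 difference 1.07, limma adjusted p = 0.00463). The plus-strand probe A_66_P108474 was higher in fetal liver by 1.28 (limma adjusted p = 0.00905). NAP093099-001, a minus-strand probe with no description, differed by -0.11. Zfp386 fell by 0.69 and 1.73 on the log2 scale on its 2 probes in the interval, and by 1.92 on the first probe outside it. LOC544904, which has no immunoglobulin description, fell by 3.80. At the other edge, Adam6a just outside the interval was higher by 1.98 and IGHV5-2 just inside it was lower by 1.73.

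Most tested probes on the constant-region side of the locus were higher in fetal liver. The 300000 bases beyond the proximal end hold 19 probes. Their descriptions include constant segments, other heavy-chain sequences, Adam6a and Adam6b, but no D or J segment. Of the 19 probes, 13 were tested. In fetal liver empty-vector cells 10 of them were higher and 1 was lower than in bone marrow empty-vector cells, against 39.1% and 19.8% of all tested probes. Their median log2 difference was 2.34, against 0.47 for all tested probes. The IGHM constant segment itself, the first heavy-chain isotype made, differed by 0.12 (limma adjusted p = 0.653). A probe for IGHD differed by 2.34 and one for IGHG2C by 2.73. Most tested V probes and most tested probes of the constant-region side thus differed between the tissues in opposite directions.

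With let-7b, most V probes that were bright in bone marrow read higher than in fetal liver empty-vector cells, but 1 V probe alone passed the adjusted threshold. By limma with Benjamini-Hochberg adjustment, 1 of 106 V probes was higher in let-7b cells than in fetal liver empty-vector cells (0.0176% of all tested probes were called higher) and none was lower (0.00704% of all). Without adjustment, p was below 0.05 for 31 V probes higher and 2 lower, against 1220 and 1520 of all 28409 probes. Both let-7b arrays lay above both empty-vector arrays for 34 V probes, 11.8% of all tested probes doing so, and below for 7, against 18.2% of all. The call count depends on the model: with the slide, which in fetal liver is also the replicate number, as a fixed block 12 V probes were called. Over all probes that model called 51 higher and 34 lower. The count also rose without fetal liver empty-vector replicate 1, which leaves 1 array in that group. Calls over all probes rose in that fit too. With the replicate number as a block over all 8 arrays no V probe was called, and IGHV1-9 then had a limma adjusted p of 0.163.

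The probe called was IGHV1-9, a family 1 segment 1037 kb from the constant-region end. It read -2.67 and -2.92 in let-7b cells and -5.06 and -5.29 in fetal liver empty-vector cells, where 1 of the 2 arrays was well above background. The let-7b arrays lay well above the others, with a log2 difference of 2.38 (SE 0.17, limma adjusted p = 0.0474), and of 2.40 within slide 2 and 2.37 within slide 3. In Lin28b and bone marrow empty-vector cells it read -2.00 and -1.74, and -1.71 and -1.73, so the let-7b level stayed below the bone marrow level. By the printed coordinates, the heptamer-bearing probe LOC639988 lies directly beside IGHV1-9 on the same strand. LOC639988 differed by only 0.66 with let-7b (SE 0.35, limma adjusted p = 0.625), and its groups overlapped. It was well above background on 1 array of each fetal liver group. Whether the 2 probes read 1 segment was not examined here. The call ended in 7 of the 8 limma fits that left out an array, with adjusted p of 0.0913 to 0.302, and held without fetal liver empty-vector replicate 1 (limma adjusted p = 0.0334).

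Other family 1 probes showed differences of like size that did not pass. IGHV1-69 read -2.70 and -3.02 in let-7b cells and -4.73 and -4.82 in fetal liver empty-vector cells (log2 difference 1.91, limma adjusted p = 0.0637). IGHV1-47 read -1.18 and -1.63 against -3.37 and -3.40 (1.98, limma adjusted p = 0.069). IGHV1S6 read -0.33 and -0.48 against -1.92 and -1.81 (1.46, limma adjusted p = 0.069). In each case both let-7b arrays stood apart from both empty-vector arrays. Over the 20 tested family 1 probes the median log2 difference was 1.58, against -0.05 over all tested probes. Both let-7b arrays lay above both empty-vector arrays for 12 of the 20, against 11.8% of all tested probes. On both slides, 11 of the 20 were higher by more than 1, against 249 of all 28409 tested probes. Of all 22 family 1 probes, 11 were well above background on no fetal liver empty-vector array, so part of these differences are set against background. IGHV1-11, on its distal probe, was detected on 1 let-7b array and no empty-vector array, and only a bound of at least 1.38-fold higher in let-7b cells can be given. Its probe 1066 kb from the constant-region end was detected on all 8 arrays and differed by 0.19, with overlapping groups.

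Some bright probes without a family name also read higher with let-7b, and others did not. LOC640701, on the printed probe, read -0.25 and -0.64 in let-7b cells and -2.09 and -2.18 in fetal liver empty-vector cells, with a difference of 1.85 within slide 2 and 1.54 within slide 3. LOC640614 read 0.58 and -0.14 against -0.91 and -1.08, and LOC677484 read 0.25 and -0.41 against -1.42 and -1.52. None of these 3 passed (limma adjusted p = 0.0693 for LOC640701 and 0.240 for LOC640614), although the groups were apart in each. LOC677484 and LOC640614 share sequence with each other and with family 1 probes, as printed above, so they do not count as separate segments. LOC676347, in windows 4 and 5, was detected on all 8 arrays by 2 probes that differed by 0.34 and 0.12, with overlapping groups; it was named after its values were seen.

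Among the 22 V-interval probes whose mean level in bone marrow empty-vector cells exceeded 0, a choice that uses no fetal liver value, 21 had a positive let-7b difference and 19 had both let-7b arrays above both empty-vector arrays. Their median level was -0.73 and -1.26 on the let-7b arrays, -2.51 and -2.61 on the fetal liver empty-vector arrays, 1.68 and 1.57 on the Lin28b arrays and 2.13 and 1.95 on the bone marrow empty-vector arrays. The median let-7b difference was 1.71 within slide 2 and 1.28 within slide 3, against -0.02 and -0.11 for all tested probes. On both slides 16 of the 22 were higher by more than 1, against 249 of all 28409 tested probes. Of those 28409, 12197 had a positive difference and 11.8% had both let-7b arrays above both empty-vector arrays. Some of the 22 share sequence, as printed above, and are not independent measurements. The 3 without separate groups were LOC635326 (-0.14), NAP093099-001 (0.11) and Zfp386 (0.46), none of which is described as immunoglobulin.

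In the proximal families a let-7b difference could hardly be measured. Over the 8 tested probes of families 2 and 5 the median let-7b difference was -0.10, and none had both let-7b arrays above both empty-vector arrays. IGHV2-9 read -5.84 and -6.72 in let-7b cells and -6.02 and -6.80 in fetal liver empty-vector cells, well above background on no fetal liver array. Neither let-7b array was well above background for any of the 5 family 2 probes, so a higher level that stayed under the limit would not have been seen. Under normexp the median of these 8 probes was 0.79, against 0.36 for all probes. IGHV5-17, on its brighter probe, was well above background on all 8 arrays and read -2.66 and -3.58 in let-7b cells and -2.38 and -3.58 in fetal liver empty-vector cells, a difference of -0.14. Its levels differed more between the slides, which are also the separate sorts, than between the viruses.

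By window, the median let-7b difference over tested probes was -0.11, -0.09, 0.28, 0.65 and 1.21 from window 1 to window 5. The medians of the first windows are of probes mostly under the fetal liver background limit. The Spearman correlation of the difference with distance from the constant-region end was 0.46 over 106 tested probes and 0.20 over the 40 probes well above background on all 8 arrays, which share arrays and, in part, sequence. Some probes placed in window 2 differed as well: LOC544904 and the brighter LOC100048770 probe by 1.46 and 1.52, and LOC677484 by 1.39. LOC677484 shares sequence with family 1 probes, as printed above, so its signal may come in part from distal transcripts. Of the 15 probes in the largest group of shared runs, 3 lie in windows 1 and 2. Position and shared sequence can thus not be told apart for such probes. Family 8 lies among family 1 in part of the locus, yet its 5 probes had a median of 0.25 and none had separate groups. IGHV8-8, on the brightest of its 3 probes, read -2.83 and -2.50 in let-7b cells and -3.37 and -2.20 in fetal liver empty-vector cells. With 1 probe for each group of shared runs, 13 immunoglobulin probes of windows 3 to 5 that were well above background on all 8 arrays had a median let-7b difference of 0.66, with 1.25 within slide 2 and 0.076 within slide 3. Of these 13, 6 had both let-7b arrays above both empty-vector arrays, against 12.8% of all probes well above background on all 8 arrays.

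Detection differed by a smaller margin. Both let-7b arrays and 1 empty-vector array were well above background for 8 probes: IGHV1-9, IGHV1-39, IGHV1-69, IGHV1S4, LOC636979, Gm5353, LOC677648 and BC103785, several of them named after their values were seen. The reverse held for IGHV5-2 and 1 of the LOC100048271 probes. In all, 33.1% of V probes were detected on both let-7b arrays and 29.0% on both empty-vector arrays, against 56.1% and 55.3% of all usable probes. Among the 18 family 1 probes bright enough in bone marrow to pass the common limit, 10 were detected on both let-7b arrays and 6 on both empty-vector arrays. Over all probes that pass this limit, the shares were 96.6% and 94.6%. IGHV1-39 read -2.06 and -2.63 in let-7b cells and -3.91 and -4.55 in fetal liver empty-vector cells, against 1.29 and 1.16 in Lin28b cells and 1.74 and 1.65 in bone marrow empty-vector cells. No V probe had both let-7b arrays above background and both empty-vector arrays below it.

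With Lin28b, most V probes well above background on all 8 arrays lay slightly lower in bone marrow cells, and no V probe passed the test. By limma with Benjamini-Hochberg adjustment 0 of 106 V probes were higher (0.00352% of all tested probes were) and 0 lower (0% of all). Without adjustment, p was below 0.05 for 10 V probes lower and 0 higher, against 459 and 525 of all 28409 probes. Both Lin28b arrays lay below both bone marrow empty-vector arrays for 50 of the 106 V probes (33.3% of all tested probes did) and above them for 5 (17.8% of all). Of the 40 V probes well above background on all 8 arrays, 35 lay below and 0 above, against 35.1% and 17.1% of such probes on the array.

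The differences were small and alike across the bright probes. IGHV1S6 read 2.33 and 2.31 in Lin28b cells and 2.73 and 2.92 in bone marrow empty-vector cells, a log2 difference of -0.50 (SE 0.14, limma adjusted p = 1). LOC640701 read 2.18 and 2.06 against 2.61 and 2.57, a difference of -0.47 (SE 0.17). LOC640614 read 3.18 and 3.03 against 3.60 and 3.44, a difference of -0.42 (SE 0.25). In all 3 both Lin28b arrays were lower. Over the 22 probes with a bone marrow empty-vector level above 0, a choice that uses 1 side of this comparison, the median was -0.43. The range was -0.56 to -0.01. Of the 22, 20 had both Lin28b arrays below both empty-vector arrays, against 33.3% of all tested probes. The median over all tested probes was -0.04.

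The proximal families, well above background in bone marrow, were read in the same way. Over the 8 tested probes of families 2 and 5 the median was 0.12 and none had separate groups. IGHV2-2 read -2.39 and -1.89 in Lin28b cells and -2.22 and -2.46 in bone marrow empty-vector cells. By window, the median Lin28b difference over tested probes was 0.04, 0.07, -0.11, -0.36 and -0.46 from window 1 to window 5. In window 1, 2 of 24 tested probes had both Lin28b arrays below both empty-vector arrays, and in window 5, 18 of 19, against 33.3% of all tested probes. The Spearman correlation with distance was -0.63 over 106 tested probes and -0.19 over the 40 on all 8 arrays. Among those 40, the median was -0.39 for the 7 in windows 1 and 2 and also -0.39 for the 33 in windows 3 to 5. Both Lin28b arrays lay below both empty-vector arrays for 4 of the 7 and 31 of the 33. Position and probe brightness can thus not be told apart in the window medians. Family 8 was lower in all 5 probes, of which 3 are named IGHV8-8, with a median of -0.22 and a range of -0.34 to -0.14.

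Whether the 2 retroviruses shifted the V probes differently was tested as let-7b effect minus Lin28b effect, in which no array is shared. By limma with Benjamini-Hochberg adjustment 0 of 106 V probes were called higher (0% of all tested probes were) and 0 lower (0.00704% of all). Without adjustment, p was below 0.05 for 31 higher and 1 lower, against 1014 and 924 of all probes. The smallest adjusted p was 0.0983, shared by IGHV1-69 (2.35), IGHV1-9 (2.53) and IGHV1S6 (1.97). The count of V probes called was 12 for let-7b, 0 for Lin28b and 8 for the difference of the effects when the fetal liver slide was a fixed block. Over all 28409 probes that model called 51 higher and 34 lower with let-7b, 4 and 2 with Lin28b, and 30 and 20 for the difference.

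On the constant-region side, 0 of the 13 tested probes were called with either retrovirus by limma, in a design that called few probes at all. Their median difference was -0.11 with let-7b, ranging from -0.66 to 0.51, and 0.11 with Lin28b, ranging from -0.68 to 0.39. The IGHM segment differed by -0.08 with let-7b and 0.11 with Lin28b.

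A list of 36 genes known to act on the heavy-chain locus, covering B-lineage factors, the Ezh2 complex, cohesin and IL-7 signalling, was set beside the V probes. All 36 were well above background on all 8 arrays. None was called with let-7b or with Lin28b, and the list medians were -0.02 and 0.00. Arid3a was the one of them with the largest differences, at -0.96 with let-7b (limma adjusted p = 0.161) and 1.07 with Lin28b (limma adjusted p = 0.86). It read 2.61 and 2.55 in let-7b cells, 3.67 and 3.42 in fetal liver empty-vector cells, 2.91 and 3.16 in Lin28b cells and 2.01 and 1.92 in bone marrow empty-vector cells. The groups did not overlap in either experiment.

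Between the empty-vector groups 11 of the 36 genes were higher and 12 lower in fetal liver, against 39.1% and 19.8% of all tested probes. The list median was -0.14, against 0.47 for all tested probes. The lower ones included the Polycomb subunits Ezh2 (-0.83, limma adjusted p = 0.00755), Eed (-0.70) and Suz12 (-1.45). They also included the cohesin genes Smc3 (-1.54) and Smc1a (-0.85), the cohesin loader Nipbl (-1.88) and the cohesin release factor Wapl (-1.96, limma adjusted p = 0.00105). The cohesin gene Rad21 was not called (-0.17, limma adjusted p = 0.283). The higher ones included Arid3a (1.58, limma adjusted p = 0.000995), the IL-7 receptor chain Il7r (1.10) and the B-lineage factor Foxo1 (1.43). Of the Stat5 genes of IL-7 signalling, Stat5b was higher (0.90) and Stat5a lower (-0.54, limma adjusted p = 0.0329). Pax5, the B-lineage commitment factor, differed by -0.23 (limma adjusted p = 0.448), and Yy1 by 0.27 (limma adjusted p = 0.0976). The part of these genes in the V probe differences was not tested.

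Cell type markers were summed on the linear scale for each array. Of 12 pro-B markers 11 were measured, and all 11 were well above background on all 8 arrays. Their sum was 901 and 958 in let-7b cells, 787 and 1074 in fetal liver empty-vector cells, 310 and 339 in Lin28b cells and 375 and 354 in bone marrow empty-vector cells. The fetal liver groups overlapped, and no pro-B marker was called with either retrovirus. Stromal markers, which the OP9 layer could supply, summed to 17.4 and 13.9 in let-7b cells, 7.62 and 9.91 in fetal liver empty-vector cells, 50.2 and 32.8 in Lin28b cells and 19.3 and 22.98 in bone marrow empty-vector cells. Their median difference over 10 markers was 0.97 with let-7b and 1.07 with Lin28b, with 0 called by limma, while the median of the 22 bright V-interval probes was 1.47 with let-7b and -0.43 with Lin28b.

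The T-cell, myeloid and erythroid sums differed between the tissues, while the mature B and plasma sums overlapped. A sum follows its brightest markers. In fetal liver empty-vector cells these were Cd2 (4.45 and 5.49) for T cells and Itgam (5.80 and 4.10) for myeloid cells. Between the empty-vector groups the T marker Lat (-1.18) and the myeloid marker Lyz2 (-2.51) were lower in fetal liver. The T-cell sum was 20.9 to 58.9 on fetal liver arrays and 4.64 to 6.29 on bone marrow arrays. The myeloid sum was 24.8 to 61.2 on fetal liver arrays and 7.64 to 9.91 on bone marrow arrays. The sum of mature B and plasma markers was 4.26 to 6.99 on fetal liver arrays and 4.82 to 8.29 on bone marrow arrays. Erythroid markers summed to 0.170 to 0.265 on fetal liver arrays and 0.113 to 0.125 on bone marrow arrays. Of the measured markers, 1 T marker and 2 erythroid markers were well above background on no array. Between the empty-vector groups, fetal liver was higher for 5 and lower for 1 of 11 tested pro-B markers, higher for 5 and lower for 1 of 9 tested mature B markers, and higher for 4 and lower for 1 of 6 tested T markers. It was higher for 4 and lower for 1 of 8 tested myeloid markers, higher for 1 and lower for 6 of 10 tested stromal markers, and higher for 1 and lower for 0 of 3 tested erythroid markers. The part of these cells and of stromal cells in the V probe differences was not tested.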

How the data were processed

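Intensities were deposited as Agilent scanner files. Per the file headers, Feature Extraction 9.5.3.1 subtracted background from each spot and set its well-above-background flag, on an array of build mm9. The authors deposited a log2 table of normalized values, whose centring is unknown, and it was used within a tissue as an alternative. Here log2 processed intensities minus each array's 75th percentile over non-control spots were averaged over copies of a probe. Of 39429 probes 31 were dropped for outlier spots, and 28409 well above background on at least 2 arrays were tested with limma 3.58.1 in R 4.3.3, with 4 group means over 8 arrays, 4 residual degrees of freedom and Benjamini-Hochberg adjustment at 0.05. No exact permutation test was used, since 2 arrays against 2 cannot go below p = 0.333. For a bound of at least N-fold, each dim array was given its own signal or the lowest level well above background, whichever was higher. The mean of these was set against that of the bright arrays. An undetected probe can lie above that lowest level, so such a bound is not a strict minimum.

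The members and lists were chosen with earlier results of these data known. Named probes were the 8 brightest, the called ones (up to 10 each way) or the 4 with the smallest p per comparison, the named V segments detected on all arrays, the brightest 3 per family, other genes in the interval, those detected in 1 group and not in another, and Ighv1-9. Replicates are separate sorts. Samples with the same fetal liver number share a slide per the file headers, and their deviations correlated at 0.51 (bone marrow -0.06). Precision is limited by having 8 arrays. The script was tested on simulated data.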

Additional observations from a re-analysis of the deposited data

How the results depend on the processing

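With Lin28b no V probe was called under any setting run. The let-7b count of 1 was 0 under normexp, a 75th percentile over probes detected on all arrays, no filter, only the groups compared, the replicate block and the authors' deposited table. It was 9 with probes required on both arrays of a group, and 12 under quantile scaling and with the slide as a fixed block. It was 14 with eBayes trend and robust, 18 with these and the replicate block, and 21 with the slide as a random block. Over all tested probes, let-7b calls in the main setting were 5 higher and 2 lower. They were 28 and 13 with probes required on both arrays, 50 and 26 under quantile, and 51 and 34 with the fixed block. They were 58 and 31 with trend and robust, 75 and 56 with these and the replicate block, and 140 and 116 with the random block. The slide as a fixed block and the replicate block with trend and robust were chosen after seeing the data. The let-7b count also moved when 1 array was left out, which leaves 1 array in a group. It was highest without fetal liver empty-vector replicate 1, where calls over all probes rose too. The difference of the effects, 0, was 5 under quantile, 11 with trend and robust, and 16 and 8 with the slide as a random or fixed block. It was 14 with the replicate block, trend and robust. Over all probes these 5 settings called, higher and lower, 15 and 12, 37 and 16, 63 and 44, 30 and 20, and 49 and 35. The tissue count of 84 was 32 under normexp. Over all probes, tissue calls were 11113 higher and 5620 lower, 6955 and 7759 under quantile, and 10058 and 1909 under normexp, and the median was 0.47, -0.0037 and 0.97. Without the filter it was 1.01.

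Under normexp the let-7b median was 0.84 over tested V probes, 0.83 in windows 1 and 2 and 0.79 in families 2 and 5, while that of all probes moved to 0.36. The authors' table gave family 1 a let-7b median of 0.43, and IGHV1-9 there had a limma adjusted p of 0.46. The tissue median under normexp was -0.23 over tested V probes, 1.25 and 0.041 in windows 1 and 2 and windows 3 to 5, -0.57, -0.12 and -0.041 in family 1, families 2 and 5 and family 8, and -3.59 for the 22 bright probes. Under quantile these were -3.90, -2.35, -3.49, -4.29, -4.31 and -1.77 for the sets before the bright probes, and without the filter the first was -1.63. The cause was not tested. Leaving out 1 array moved the Lin28b median to between -0.26 and 0.20 in windows 1 and 2 and between -0.17 and 0.34 in families 2 and 5. It moved the let-7b median to between -0.38 and 0.41 in windows 1 and 2 and between -0.32 and 0.81 in family 8. The tissue median lay between -1.62 and -0.94 in windows 1 and 2, between -3.48 and -2.92 in families 2 and 5, and between -1.92 and -0.75 in family 8.

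Low fetal liver signal limits the proximal probes most: a change under their background limit could not be seen. With 2 arrays a group the calls rest on a spread pooled over 4 groups. Beyond the let-7b count and the calls of IGHV1-9 and IGHV10-3, the replicate block by itself changed no call among the counts and named probes it was run on.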

Other observations

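Some V probes were high on 1 array of a group only. IGHV7-3 read -7.46 and -6.86 in let-7b cells and -7.63 and -1.28 in fetal liver empty-vector cells. IGHV1-14 read -7.44 and -2.35 in let-7b cells and -7.76 and -6.75 in fetal liver empty-vector cells. IGHV1-24 read -3.35 and -6.02 in Lin28b cells and -6.16 and -6.38 in bone marrow empty-vector cells, and LOC634206 read -6.88 and -3.79 in Lin28b cells and -6.44 and -6.91 in bone marrow empty-vector cells. Values between replicates of tested V probes varied more than those of other probes on 3 of the 4 groups' arrays: the median SD was 0.44 against 0.22 in let-7b, 0.54 against 0.28 in fetal liver empty-vector and 0.19 against 0.07 in Lin28b cells, and 0.08 in both sets in bone marrow empty-vector cells.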
